A study of Mus musculus with 6 samples.

Results

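The transcription factors that build and divide the conventional dendritic cell (cDC) lineage were followed in bulk RNA-seq of immune cells sorted from the muscularis externa (ME), the muscle wall of the mouse small bowel. The 10 genes were Zbtb46, Bcl6, Irf8, Batf3, Id2, Nfil3, Irf4, Klf4, Runx3 and Tcf4, and they were found by their symbols in the first column of the expression table. All 10 were present among the 26110 genes listed, none of their symbols occurred more than once, and all 10 were among the 17812 genes whose mean over the libraries was at least 10, the level required for a test. The cells were MHCIIhi, that is, with much MHC class II on their surface, and came from untreated mice of the genotype CX3CR1+/GFP, in which GFP replaces the coding sequence of 1 copy of the fractalkine receptor gene Cx3cr1. They were divided into CX3CR1- cells, with 3 libraries, and CX3CR1+ cells, with 3 libraries, and the muscle walls of several mice were pooled before sorting, without a statement on whether each library had a pool of its own. The sample labels call both populations dendritic cells, whereas the study calls both macrophages. It stained both for the macrophage marker IBA-1. By flow cytometry it found CD11b on most CX3CR1- cells, and CD11c and the dendritic cell marker CD103 on very few. It also reported higher CD103 and Flt3 transcripts in the CX3CR1- cells. A library is the replicate throughout, and the p-values measure the spread between libraries, which may in part be technical.

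Conventional dendritic cells arise from bone marrow precursors that depend on the growth factor receptor FLT3, and they carry antigen to lymph nodes to prime T cells. The cDC1 branch, which cross-presents antigen to CD8 T cells, needs IRF8, BATF3, ID2 and NFIL3. The cDC2 branch, which mainly primes CD4 T cells, leans on IRF4 and, in some of its subsets, on KLF4. ZBTB46 marks the whole conventional lineage. TCF4, also called E2-2, directs plasmacytoid dendritic cells (pDC) instead, and ID2 opposes such E proteins by binding them. Several of these factors also act in macrophages, B and plasma cells, innate lymphoid cells, epithelium and stroma, and Zbtb46 is also expressed by endothelium.

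The libraries held about 5346381 to 17616761 reads, and the depths of both populations overlapped. The share of mitochondrial genes in the total moved with the populations, at 51.7 ± 3.76% (SD, n = 3) in CX3CR1- cells against 19.6 ± 1.55% (SD, n = 3) in CX3CR1+ cells, and its part in the results was not tested. Cx3cr1 itself, the gene behind the sort, was at 23.6 in CX3CR1- and 366 in CX3CR1+ cells (means, log2 fold change -3.92, adjusted p = 7.72e-06 from limma), in the direction of the labels. The values of the table are read estimates normalized between libraries and not per length, so that levels are compared between genes only after division by transcript length. Bulk values cannot tell fewer cells of a type from less RNA per cell.

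The labelled cell type was checked against markers of dendritic cells and of other cells, shown in the plot of marker lists. In this check and below, a gene counts as called when its log2 fold change reaches 1 in either direction and its adjusted p does not exceed 0.05 (limma, Benjamini-Hochberg adjustment over all tested genes). Fold changes are CX3CR1- relative to CX3CR1+ cells throughout. Of all tested genes, 12.2% were called higher and 8.15% lower in CX3CR1- cells, the shares beside which the counts of markers stand. The cDC list, with Btla, Dpp4 and Flt3 among its genes, had 5 of 6 genes higher in CX3CR1- cells and none lower, and its summed level was 2018 to 2251 in CX3CR1- against 301 to 349.8 in CX3CR1+ libraries. The cDC1 list had 8 of 9 genes higher and none lower, with sums of 4185 to 5955 against 1169.6 to 1317. Of the cDC2 list 5 of 6 genes were tested, of which 3 were higher and 1, Sirpa, was lower. The summed level of that list ran the other way from the cDC and cDC1 lists. It was at 3186 to 3695 in CX3CR1- against 4315 to 4747 in CX3CR1+ libraries. Sirpa alone was at 709.8 against 3078 on average, a wider gap than that between the sums. All 12 macrophage markers were lower in CX3CR1- cells, with sums of 11464 to 12993 against 56516 to 61542. In the libraries labelled CX3CR1+, Btla did not exceed 3 reads in any library, Itgae of the cDC1 list was at 1.85, 3.29 and 0, and Esam of the cDC2 list was at 2.58, 4.01 and 0. Other markers were well measured there, such as Cadm1 of the cDC1 list, at 239 against 311 in CX3CR1- cells on average, and Mgl2 of the cDC2 list, at 1273 against 1540.1. The macrophage markers were present in both populations.

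**Figure D1:**
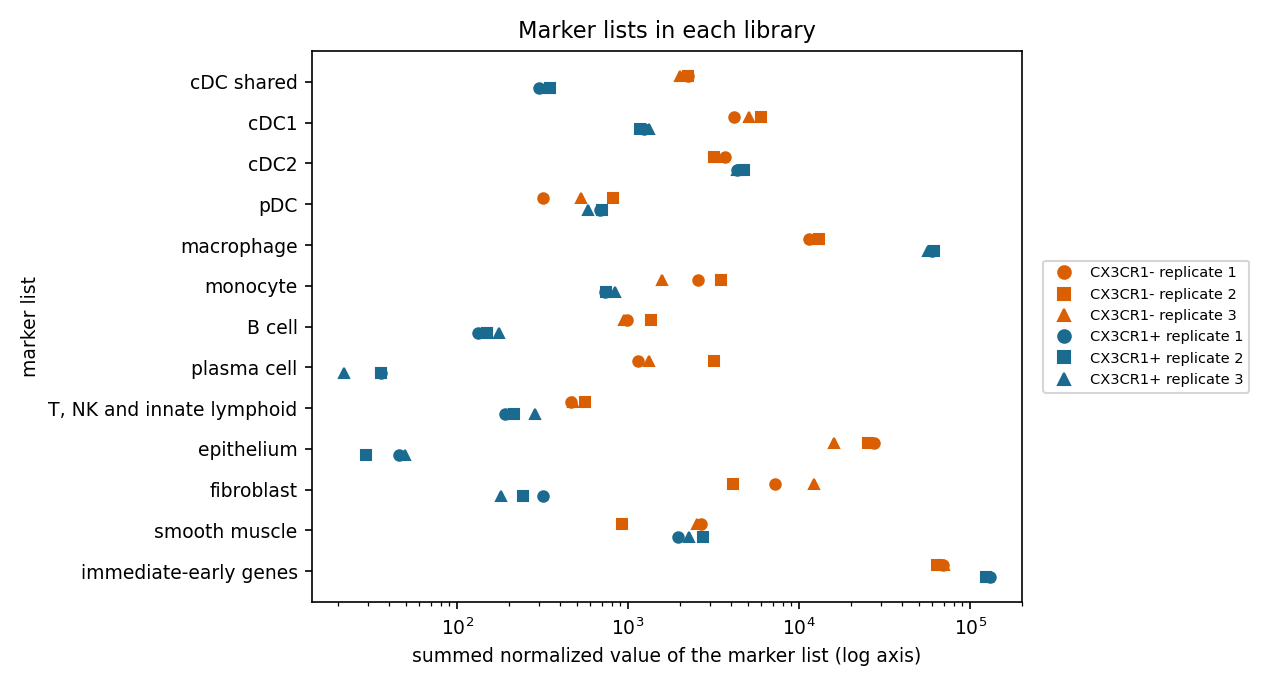
Summed normalized value (log axis) of each marker list in each library, with orange symbols for the 3 CX3CR1- and blue symbols for the 3 CX3CR1+ libraries. The cDC and cDC1 lists lie higher in every CX3CR1- library, the macrophage list lies lower, and the epithelium list is at 16057 to 27386 in CX3CR1- against 29.2 to 49.4 in CX3CR1+ libraries.

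Markers of other cells moved with the populations as well. All 8 epithelial and all 6 fibroblast markers were higher in CX3CR1- cells, as were 5 of 6 B cell, 3 of 5 plasma cell, 3 of 4 monocyte and 2 of 4 T, NK and innate lymphoid markers that were tested, 3 of 5 endothelial markers, 2 of 4 markers of enteric neurons and glia and the 1 tested marker of granulocytes and mast cells. The 6 smooth muscle markers gave no call. Among all tested genes 12.2% were called higher, and several of these lists hold few tested genes. Among the markers at the floor of 3 reads in every CX3CR1+ library were Krt20, Epcam and Krt8 of the epithelial and Mzb1 of the plasma cell markers. Tbx21 and Klrb1c of the lymphoid markers were at that floor too. Neither was tested, and both exceeded the floor only in CX3CR1- replicate 3, at 25.9 and 4.77. Ptprc, the gene of the pan-leukocyte protein CD45, was at 2860 to 4526 in CX3CR1- and 3897 to 4579 in CX3CR1+ libraries (log2 fold change -0.20, adjusted p = 0.472 from limma).

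Of the 10 transcription factors, 3 were called higher in CX3CR1- cells (Zbtb46, Irf4 and Klf4) and 1 was called lower (Id2), against a background of 20.4% of all tested genes called in either direction, 12.2% higher and 8.15% lower. Without the fold threshold, 6 of the 10 passed the adjusted p alone, where 24.3% of all tested genes did: the same 3 upward, and Id2, Bcl6 and Tcf4 downward. The values of the 2 populations did not overlap for 8 of the 10, where 40.0% of all tested genes did not overlap. The median absolute log2 fold change of the 10 genes was 0.98, and that of all tested genes was 0.58. Their median signed log2 fold change was -0.16, beside a median of -0.0035 for all tested genes.

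**Figure D2:**
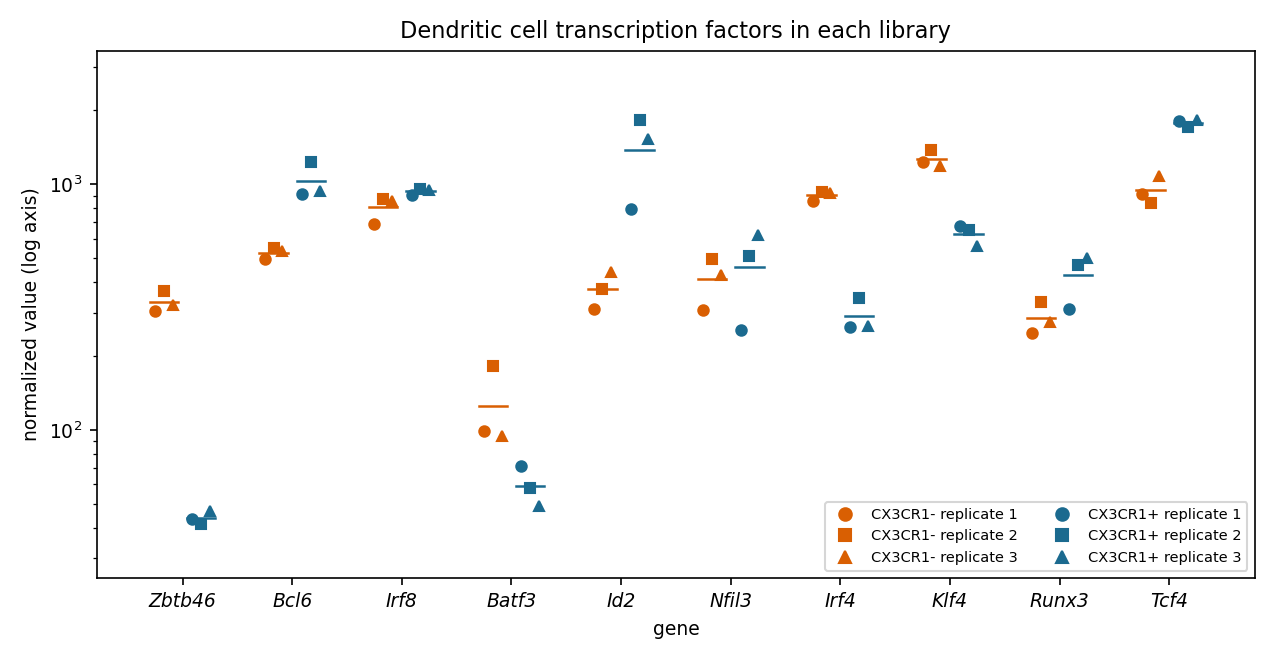
Normalized value (log axis) of each of the 10 transcription factors in each library, with the group mean as a line. The 2 populations are widely separated for Zbtb46 and Irf4, separated the other way for Id2, Tcf4 and Bcl6, and overlap for Nfil3 and Runx3.

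**Figure D3:**
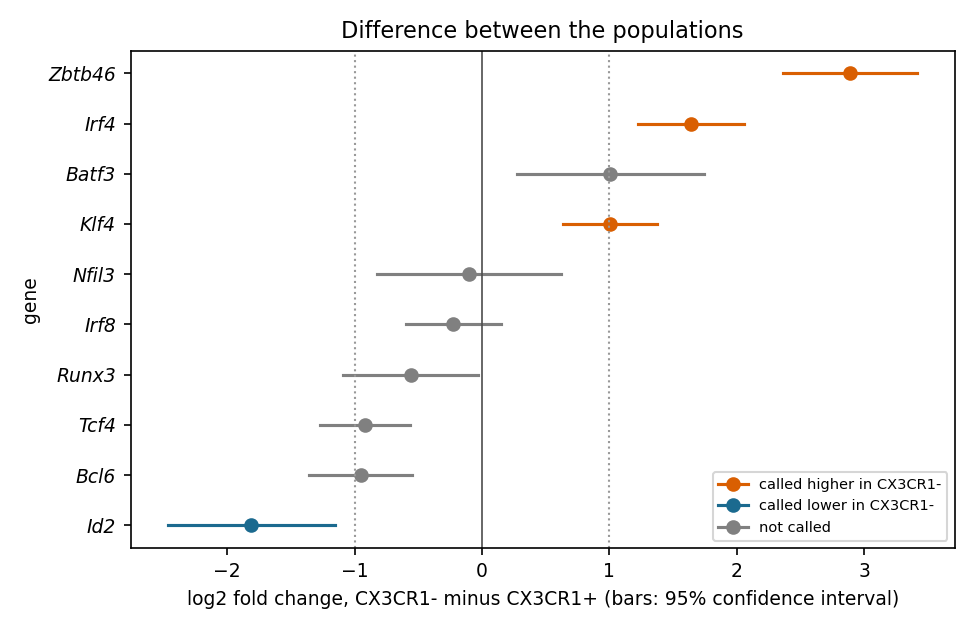
Log2 fold change of each factor, CX3CR1- minus CX3CR1+, with its 95% confidence interval from limma. Dotted lines mark the fold threshold of 1 in either direction, which Klf4 and Batf3 barely pass and Bcl6 and Tcf4 barely miss.

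The genes of these factors are spread over the genome, and the start regions of 4 of them are shown because 3 belong to called factors (Irf4, Klf4 and Id2) and the other, of Bcl6, holds motifs of its own product. The window of Zbtb46 is not shown. Like those of Id2 and Bcl6 shown here, it lies inside the gene as drawn by GENCODE. Each is the stretch of 250 bases before a RefSeq start site (GRCm38.p6), written 5′ to 3′ on the strand of the gene, with capitals for matches to the motifs searched.
Irf4, chr13:30748983-30749232, plus strand: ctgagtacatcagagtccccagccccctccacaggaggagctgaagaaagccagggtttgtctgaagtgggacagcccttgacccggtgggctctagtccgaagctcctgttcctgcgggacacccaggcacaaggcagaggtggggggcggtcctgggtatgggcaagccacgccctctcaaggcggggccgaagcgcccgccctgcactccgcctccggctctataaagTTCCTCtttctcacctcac
Klf4, chr4:55532476-55532725, minus strand: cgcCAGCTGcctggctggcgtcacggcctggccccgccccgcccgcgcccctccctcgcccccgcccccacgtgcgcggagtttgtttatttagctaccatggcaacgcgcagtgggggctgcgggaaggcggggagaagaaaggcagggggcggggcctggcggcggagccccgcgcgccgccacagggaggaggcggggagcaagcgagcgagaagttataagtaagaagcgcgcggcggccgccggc
Id2, chr12:25096093-25096342, minus strand: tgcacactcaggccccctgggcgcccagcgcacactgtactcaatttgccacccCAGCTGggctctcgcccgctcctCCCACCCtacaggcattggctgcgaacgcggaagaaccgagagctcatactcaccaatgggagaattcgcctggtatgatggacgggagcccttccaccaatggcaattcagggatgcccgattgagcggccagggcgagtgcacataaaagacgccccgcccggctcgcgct
Bcl6, chr16:23981284-23981533, minus strand: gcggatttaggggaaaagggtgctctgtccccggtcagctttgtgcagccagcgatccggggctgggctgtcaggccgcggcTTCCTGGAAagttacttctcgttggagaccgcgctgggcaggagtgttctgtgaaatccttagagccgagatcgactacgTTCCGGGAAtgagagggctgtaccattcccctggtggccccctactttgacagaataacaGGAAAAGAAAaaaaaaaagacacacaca
The motifs, searched on both strands, were GAGGAA for the ETS factor PU.1, the interferon response element (a pair of GAAA blocks with any 2 bases between them) for interferon regulatory factors, the ETS-IRF composite (GGAA and GAAA with any 2 bases between them), TGANTCA for AP-1 and BATF, CAGNTG for E proteins, TGTGGT for RUNX, GGGTGGG for KLF, GGGANTTCC for NF-κB, TTANGTAA for NFIL3 and TTCNNGGAA for BCL6. No match overlapped another motif in these 4 windows. The Irf4 window held a PU.1 core (in 23.3% of 32851 windows of the same length) and the Klf4 window an E-box (44.8%). The Id2 window held an E-box and a KLF motif (15.8%). The Bcl6 window, at the inner of 2 start sites, held 2 BCL6 motifs (at least 1 in 4.06%) and an ETS-IRF composite (2.30%). Windows were at hand for 9 of the 10 genes, of which 6 held an E-box, 3 a PU.1 core, 3 a KLF motif and 3 a BCL6 motif. Irf8, Bcl6 and Runx3 had 2 windows each and count with a motif in either, whereas the percentages are per window. The interferon response element (2.98%), the NF-κB motif (1.43%) and the NFIL3 motif (2.06%) were in none of the 9, AP-1 (6.75%) was in 1 and RUNX (14.05%) was in 1, that of Runx3 itself.

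Zbtb46 encodes a zinc finger repressor that marks conventional dendritic cells and their committed precursors, and lies on chromosome 2 (GRCm38, 181387762 to 181459426, minus strand). It was at 306, 369 and 323 in CX3CR1- libraries, against 43.6, 41.2 and 46.8 in CX3CR1+ libraries. Every CX3CR1- library lay far above every CX3CR1+ library, and the spread within each population was small. The group means were 333 ± 32.7 (SD, n = 3) and 43.9 ± 2.78 (SD, n = 3), a log2 fold change of 2.89 with a 95% interval from 2.36 to 3.42 (adjusted p = 2.02e-05, limma with Benjamini-Hochberg adjustment). This was the largest change of the 10 factors, and the absolute change lay at percentile 93.3 of all tested genes. Behind the values stood about 33 to 324 reads per library, so that the low CX3CR1+ level was still measured well above the floor of 3 reads, which lay between 1.39 and 5.36 on the normalized scale. Of the 5 endothelial markers 3 were called higher beside it, among them Cdh5, which encodes VE-cadherin, at 193, 114 and 131 in CX3CR1- libraries against 5.88, 4.01 and 11.1 in CX3CR1+ libraries. Pecam1, also endothelial, was at 555 against 449 on average (adjusted p = 0.397 from limma), and the part of endothelium in the Zbtb46 values was not tested.

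Bcl6, a repressor that supports cDC development and is also the master factor of germinal centre B cells and follicular helper T cells, went the other way. It was at 494, 550.5 and 536 in CX3CR1- libraries, against 915, 1230.3 and 944 in CX3CR1+ libraries, without overlap. Its log2 fold change was -0.95 (95% interval -1.35 to -0.55, adjusted p = 0.00345 from limma), which misses the fold threshold. Without CX3CR1+ replicate 1 or replicate 3 it passed, at -1.03 and -1.010. Scaled to Ptprc, its adjusted p was 0.0791. The gene lies on chromosome 16 (23965052 to 23988852, minus strand). The exons of Gm37419 overlap it on the opposite strand, where a library without strand information cannot assign reads by strand. Of the 31-base stretches of the Bcl6 transcripts, read without regard to strand, 0.030% occur in any other gene.

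Among the factors of the cDC1 branch, Irf8 was nearly level. IRF8 is the interferon regulatory factor that specifies cDC1 and is also used by monocytes and B cells. Irf8 was at 690.1, 875 and 857 in CX3CR1- libraries, against 905, 956 and 953 in CX3CR1+ libraries. The ranges lay side by side without overlap, but their distance was small. Its log2 fold change was -0.22, with a 95% interval from -0.60 to 0.15 (adjusted p = 0.382 from limma), and it became 0.10 after quantile normalization. A log2 fold change of 1 in either direction lies outside this interval.

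Batf3 encodes an AP-1 family partner of IRF8 that keeps Irf8 expressed in committed cDC1. It was at 98.7, 182 and 94.1 in CX3CR1- libraries, against 71.3, 57.9 and 49.0 in CX3CR1+ libraries. CX3CR1- replicate 2 stood far above the other 2 libraries of its population, and without it the log2 fold change moved from 1.009 (95% interval 0.27 to 1.75) to 0.71. The adjusted p was 0.0506 with all libraries and 0.127 without that replicate (limma), so Batf3 was not called, although the groups did not overlap. It passed with a minimum mean of 50 (adjusted p = 0.0462), scaled to Ptprc (0.0314) and without CX3CR1- replicate 3 (0.0489). In CX3CR1- replicate 2 the cDC1 marker list was highest, at 5955, against 4185 and 5068 in replicates 1 and 3. The plasma cell list was at 3174 there, against 1141 and 1318. The cDC, pDC, macrophage, monocyte, B cell and lymphoid lists and Ptprc were also highest in that replicate, whereas the cDC2 list was lowest. Their part in the Batf3 value was not tested.

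Id2 encodes a helix-loop-helix protein that lacks a DNA-binding region and neutralizes E proteins such as TCF4. It was at 310.1, 375 and 440.3 in CX3CR1- libraries, against 795, 1832 and 1529 in CX3CR1+ libraries. All CX3CR1- libraries were below all CX3CR1+ libraries, and CX3CR1+ replicate 1 was far below the other 2 of its population. The means were 375 ± 65.1 (SD, n = 3) and 1385 ± 533 (SD, n = 3), a log2 fold change of -1.81 (95% interval -2.47 to -1.16, adjusted p = 0.00141 from limma). Without CX3CR1+ replicate 1 it was -2.17. This fall in CX3CR1- cells came beside higher markers of T, NK and innate lymphoid cells, which also express Id2 (summed level 465 to 559 against 190.4 to 286), and beside lower macrophage markers. Their part in it was not tested.

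Nfil3, whose product acts above Id2 in the cDC1 branch and in innate lymphoid cells, showed no stable direction. It was at 309, 497 and 428 in CX3CR1- libraries, against 256, 509 and 623 in CX3CR1+ libraries, and the populations overlapped. The log2 fold change of -0.10 had a 95% interval from -0.83 to 0.62 (adjusted p = 0.857 from limma), and it changed sign in 5 of 15 alternative settings. Nfil3 had the largest spread of the 10 genes among CX3CR1+ libraries, with an SD of 40.6% of the mean, next to 38.5% for Id2. In CX3CR1+ replicate 1, Id2, Nfil3, Runx3, Bcl6, Irf8 and Irf4 each had their lowest value of that population, whereas Batf3 and Klf4 had their highest.

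Irf4, the interferon regulatory factor of cDC2 and of plasma cells, was the factor with the next largest rise after Zbtb46. It was at 858, 931 and 919.8 in CX3CR1- libraries, against 262, 345 and 266 in CX3CR1+ libraries, and the CX3CR1- values differed among themselves by an SD of 4.31% of their mean. The means were 903 ± 38.9 (SD, n = 3) and 291 ± 46.7 (SD, n = 3), or 1.64 on the log2 scale (95% interval 1.23 to 2.06, adjusted p = 1.54e-04 from limma). The gene lies on chromosome 13 (30749226 to 30766976, plus strand). Jchain, the joining chain of secreted antibodies and the plasma cell marker with the highest level, was at 946, 2900.0 and 1115 in CX3CR1-, against 8.81 to 12.2 in CX3CR1+ libraries. The part of plasma cells in the Irf4 values was not tested.

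Klf4, a zinc finger factor of some cDC2 subsets, of monocytes and of differentiating epithelium and stroma, rose by a factor of about 2.01. It was at 1228, 1376 and 1185 in CX3CR1- libraries, against 674, 653 and 562 in CX3CR1+ libraries, with a clear gap. The log2 fold change of 1.005 (95% interval 0.64 to 1.37, adjusted p = 0.00151 from limma) sat on the fold threshold. It fell just under it with a pseudocount of 10 (0.99), without CX3CR1- replicate 2 (0.94) and without CX3CR1+ replicate 3 (0.92). Epithelial markers summed to 27386, 25346 and 16057 and fibroblast markers to 7226, 4117 and 12168 in CX3CR1- replicates 1, 2 and 3. Their part in the rise was not tested.

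Runx3, which serves dendritic cells under TGF-β control, as well as CD8 T cells and innate lymphoid cells, was at 249, 333 and 274 in CX3CR1-, against 311, 469.8 and 501 in CX3CR1+ libraries. The populations overlapped through CX3CR1+ replicate 1. The log2 fold change of -0.56 (95% interval -1.09 to -0.03) had an adjusted p of 0.121 (limma), and it was not called in any of the 15 alternative settings, in which it lay between -0.77 and -0.36.

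Tcf4, the E protein of pDC, was at 916, 841 and 1080.1 in CX3CR1- libraries, against 1815, 1712 and 1825 in CX3CR1+ libraries. CX3CR1+ cells held the higher level in every library, and their values were within an SD of 3.51% of the mean. The log2 fold change was -0.92 (95% interval -1.28 to -0.57, adjusted p = 0.00199 from limma), just short of the fold threshold, and it was -1.02 without CX3CR1- replicate 3. Scaled to Ptprc its adjusted p was 0.0940. Of the 7 pDC markers 5 were tested, of which Ly6d and Klk1 were higher in CX3CR1- cells and Siglech and Bst2 were lower. The populations overlapped for Klk1, at 32.2, 444 and 217 in CX3CR1- against 0, 35.9 and 0 in CX3CR1+ libraries. Siglech was at 53.2, 57.8 and 61.4 against 322, 254 and 251. Ly6d, at 0 in all CX3CR1+ libraries, was at least 22.5-fold higher in CX3CR1- cells.

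The balance of paired factors was then read within each library, where the scaling of the library cancels. The log2 value of Irf4 minus that of Irf8 was 0.31, 0.09 and 0.10 in the CX3CR1- libraries and -1.78, -1.47 and -1.84 in CX3CR1+ libraries. The balance was shifted toward Irf4 in CX3CR1- cells by 1.87 on the log2 scale, against a pooled SD of 0.17 between libraries (exact two-sided permutation test over libraries, p = 0.1, below which this number of libraries cannot go). Irf4 alone differed by 1.64 and Irf8 alone by -0.22. Divided by transcript length (median of the coding transcripts in GENCODE M21), Irf8 was the higher of the pair in both populations. It was at 356 against 189.6 per kb in CX3CR1- and 413 against 61.1 per kb in CX3CR1+ cells.

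The log2 value of Id2 minus that of Tcf4 was -1.56, -1.16 and -1.29 in the CX3CR1- libraries and -1.19, 0.10 and -0.26 in CX3CR1+ libraries. Its mean was lower in CX3CR1- cells by a difference of -0.89, but CX3CR1+ replicate 1 lay inside the range of the CX3CR1- libraries (exact two-sided permutation test, p = 0.2). Without that replicate the difference was -1.26. Both genes of this pair had their lower values in the CX3CR1- libraries.

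**Figure D4:**
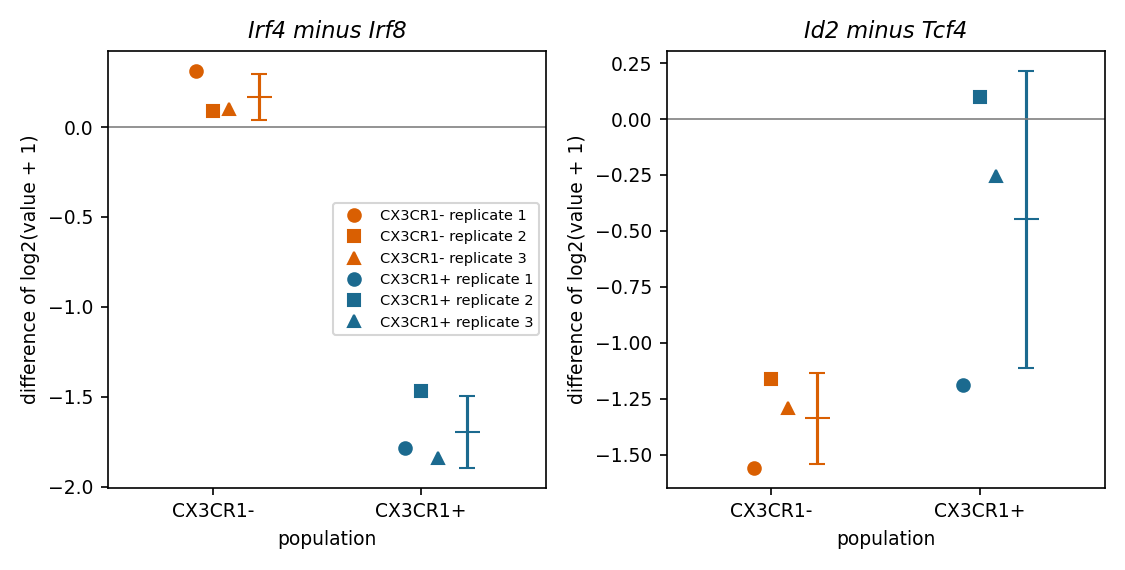
Difference of log2(value + 1) between Irf4 and Irf8 (left) and between Id2 and Tcf4 (right) within each library, with the mean and SD of each population beside the points. The Irf4 to Irf8 difference separates the populations fully, whereas the Id2 to Tcf4 difference of CX3CR1+ replicate 1 lies among the CX3CR1- libraries.

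Per kb of transcript, the order of levels differed between the populations. In CX3CR1- cells it ran Klf4 (417), Tcf4 (403), Irf8 (356), Id2 (295), Nfil3 (203), Irf4 (189.6), Batf3 (156), Bcl6 (149.5), Zbtb46 (129) and Runx3 (99.5). Only the last step, from Zbtb46 to Runx3, separated neighbours in all libraries, so that the order of neighbours before it is not resolved. Genes farther apart could separate, such as Klf4 (391 to 454) and Irf8 (304 to 385). In CX3CR1+ cells it ran Id2 (1091), Tcf4 (759.5), Irf8 (413), Bcl6 (292), Nfil3 (228), Klf4 (208), Runx3 (149), Batf3 (74.1), Irf4 (61.1) and Zbtb46 (17.0). There the steps from Tcf4 to Irf8, Irf8 to Bcl6, Klf4 to Runx3, Runx3 to Batf3 and Irf4 to Zbtb46 were without overlap. Zbtb46 was last in CX3CR1+ cells by a wide margin. With the longest coding transcript in place of the median length, Tcf4, which has 24 coding transcripts of very different lengths, fell from rank 2 to rank 8 in CX3CR1- and to rank 5 in CX3CR1+ cells, and Zbtb46 was last in both populations.

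The closest relatives of the factors within their gene families often moved differently. Of 33 relatives 32 were tested, of which 5 were called higher and 3 lower in CX3CR1- cells, 8 of 32 beside the 20.4% of all tested genes. Scaled to Ptprc, 5 were called higher and 1 lower. Their median log2 fold change was -0.06. Among the interferon regulatory factors, Irf1, which drives interferon-induced genes, and Irf7, which amplifies type I interferon, had log2 fold changes of -0.64 and 0.53 (adjusted p = 0.0419 and 0.278 from limma), and neither was called. Batf, the T cell and dendritic cell relative of Batf3, was called lower, at 89.3, 198 and 224 against 287, 477 and 471 (log2 fold change -1.33, adjusted p = 0.0210), whereas Batf3 had its higher values in CX3CR1- cells.

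Runx1, the founding member of the RUNX family and a factor of myeloid cells, had the smallest adjusted p of the relatives (5.05e-05 from limma). It fell from 4454, 4903 and 4119 in CX3CR1+ to 1251, 1526 and 1016 in CX3CR1- libraries, a log2 fold change of -1.84, beside -0.56 for Runx3. Cbfb, the partner of all RUNX proteins, stood at -0.16 on that scale (adjusted p = 0.620). Bach1, a BTB-domain repressor of heme response genes, was lower by a log2 fold change of -1.15 (adjusted p = 0.00258). Hlf, a PAR bZIP factor related to Nfil3, was higher by 2.93 (adjusted p = 0.00754), at 75.2 against 9.53 on average. Id1, an inhibitor like Id2, was called higher at low levels, 36.2 against 2.004 on average (adjusted p = 0.0122), and Id3 was at 0.92 on the log2 scale (adjusted p = 0.0766). Both values point away from that of Id2. The E proteins Tcf3 and Tcf12 had log2 fold changes of 0.65 and 0.30 (adjusted p = 0.211 and 0.267), beside -0.92 for Tcf4. In the KLF family Klf2 (1.24) and Klf9 (1.33) were called higher like Klf4, and Klf6, a factor of the injury response, was at -0.94, which missed the fold threshold.

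**Figure D5:**
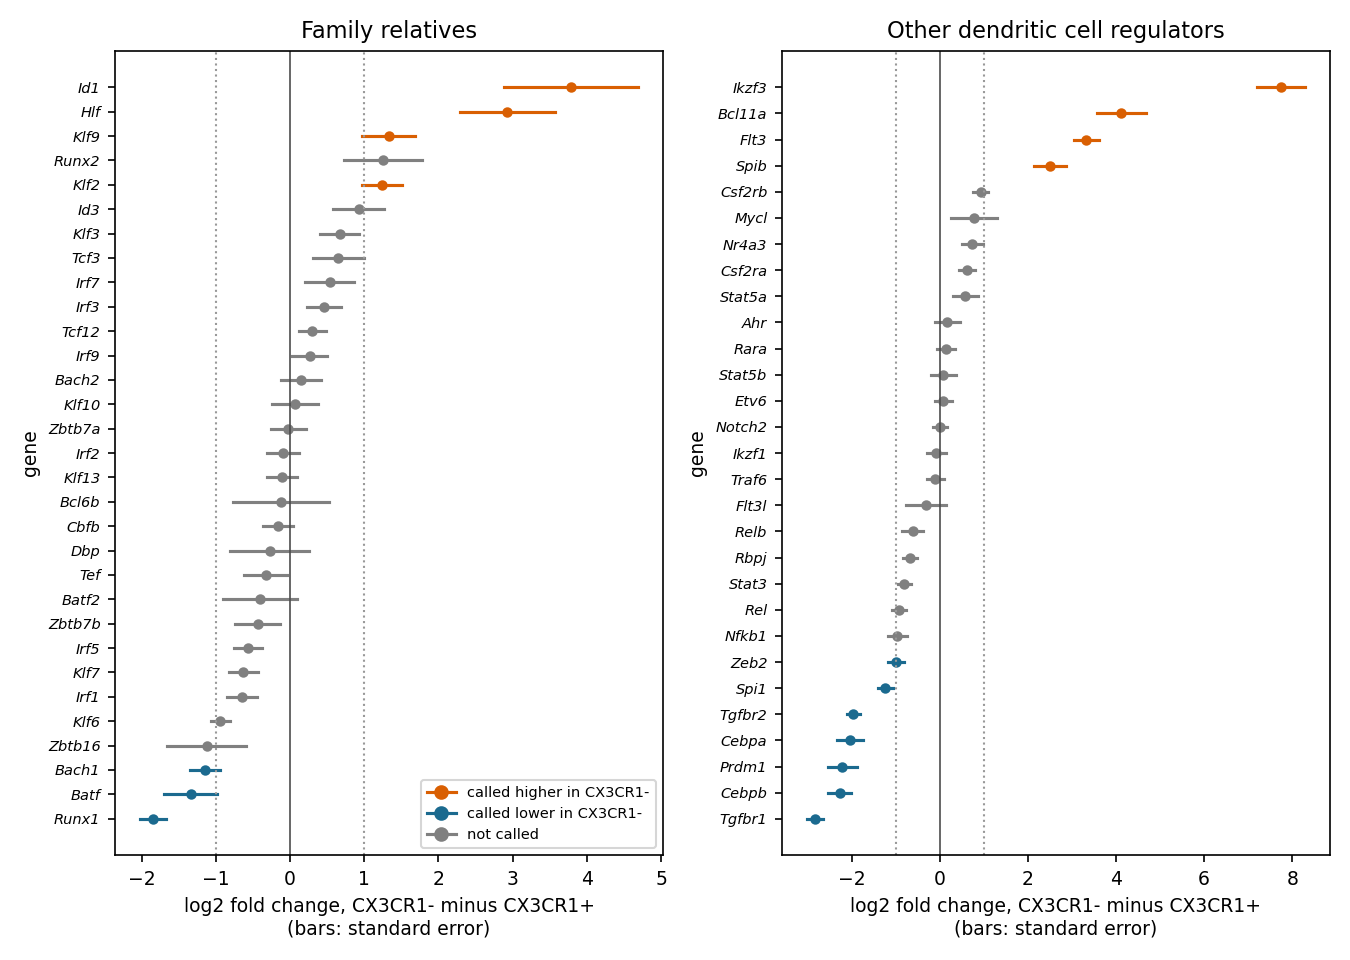
Log2 fold change, CX3CR1- minus CX3CR1+, with its standard error, of relatives of the factors (left) and of other regulators of dendritic cell development (right), in orange where called higher, blue where called lower and gray where not called. Id1 and Ikzf3 lie farthest to the right, and Runx1 and Tgfbr1 lie farthest to the left. The value of Ikzf3 depends on the pseudocount, since all CX3CR1+ libraries were at or under 3 reads.

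Other regulators of dendritic cell development were followed as a list of 30 genes, of which 29 were tested. In CX3CR1- cells 4 were called higher and 7 lower, 11 of 29 beside the 20.4% of all tested genes, with a median log2 fold change of -0.08. Flt3, the receptor of the growth factor that drives the lineage, was at 207, 237 and 164 in CX3CR1-, against 19.1, 19.5 and 18.7 in CX3CR1+ libraries (log2 fold change 3.33, adjusted p = 3.05e-05 from limma). Like those of Zbtb46, its values did not overlap. Spib and Bcl11a, factors of pDC and B cells, were higher by 2.50 and 4.12, at 88.9 against 14.5 and 227 against 12.9 on average. Ikzf3, a lymphoid factor related to Ikaros, was at 270, 344 and 337 in CX3CR1- cells and did not exceed 3 reads in any CX3CR1+ library, so that it was at least 117-fold higher. The B cell marker Cd79a moved with these 3 genes, at 199 against 1.09 on average, and its part in the values was not tested.

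On the lower side, Tgfbr1 and Tgfbr2, the receptor chains for TGF-β, showed the smallest adjusted p. Tgfbr1 was at 264, 286 and 359 in CX3CR1-, against 2276, 1933 and 2261 in CX3CR1+ libraries, a log2 fold change of -2.84 (adjusted p = 6.17e-06 from limma). For Tgfbr2 the fold change was -1.96 on the log2 scale (adjusted p = 1.37e-05). The myeloid factors Spi1, which encodes PU.1, Cebpa and Cebpb were lower by log2 fold changes of -1.24, -2.05 and -2.27. Prdm1, which encodes the repressor BLIMP-1 of plasma cells and myeloid cells, was at 117, 221 and 214 in CX3CR1- and at 534, 1196 and 880.3 in CX3CR1+ libraries (log2 fold change -2.22, adjusted p = 8.79e-04), lower in the population with the higher Jchain. Zeb2, a repressor that favours pDC and cDC2 over cDC1, sat at -1.003 (adjusted p = 0.00236), on the fold threshold. The Notch genes Notch2 and Rbpj, which serve cDC2, had log2 fold changes of 0.0041 (adjusted p = 0.990) and -0.67 (adjusted p = 0.0110), and neither was called. After quantile normalization 6 of the list were called higher and 5 lower, and scaled to Ptprc 5 were called higher and 6 lower.

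Some of the factors, Klf4 among them, are also induced within minutes of stress or tissue dissociation, so that immediate-early genes were read beside them. Of the 10 immediate-early genes none was called higher in CX3CR1- cells and 3, Junb, Atf3 and Zfp36, were called lower. Among all tested genes 12.2% were called higher and 8.15% lower. Their summed level was 63989 to 70710 in CX3CR1- and 123198 to 130159 in CX3CR1+ libraries. Fosb and Ier2 went the other way from the sum, both short of the fold threshold. Fosb was at 5734 in CX3CR1- against 3613 in CX3CR1+ cells on average (log2 fold change 0.67, adjusted p = 0.0124 from limma). Ier2 was at 465 against 285 on average (log2 fold change 0.75, adjusted p = 0.0664 from limma), without overlap. The part of dissociation in the Klf4 values was not tested.

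The profiles most like those of 3 factors over the 6 libraries were found by the Euclidean distance between centred log2 values among all tested genes. For Zbtb46 they were Naaa (distance 0.29), a lysosomal amidase that is also a cDC1 marker, S100a11 (0.35), a calcium-binding protein, and Alcam (0.48), an adhesion protein. For Irf4 they were Patj (0.25), a scaffold of tight junctions, Dpysl3 (0.26) and Rasgrp4 (0.34), a mast cell and myeloid exchange factor for RAS. For Irf8, whose profile is nearly flat, they were Foxj3 (0.09), Mkln1 (0.12) and Ube2h (0.16). With 6 libraries in 2 populations, such likeness rests mostly on the difference between the populations and is given as a description.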

How the data were processed

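RNA was sequenced from sorted MHCIIhi cells as 75 bp single reads from TruSeq libraries, a kit that does not mark strand. The authors pseudoaligned the reads with Kallisto to the mouse transcriptome (mm10, GENCODE M16), summed the estimates per gene with tximport and scaled the libraries with DESeq2. What the authors deposited is this normalized signal. Divided by the smallest step of a library, 42.6 to 44.7% of its values above 0 came out whole (tolerance 0.01), so no count test was run. That step gave the approximate reads per library and the floor of 3 reads. Intervals from limma cover the spread between libraries.

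Libraries were grouped by title and numbered in the order of their library numbers. Genes with a mean of at least 10 were tested on log2(value + 1) with limma 3.58.1 in R 4.3.3 (intensity trend in the variance prior, two-sided, Benjamini-Hochberg adjustment over 17812 genes). Fold changes are on that scale and understate the change of low genes. The test was checked on simulated data. Gene positions, transcript lengths and shared 31-mers came from GENCODE M21 (GRCm38, the assembly of mm10). At most 2.002% of the 31-mers of any of the 10 genes occur in another gene. Promoter windows are from RefSeq. Id4 was not analysed here, and some genes of the lists are not reported here.

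The 10 genes, the lists and the tests were chosen with earlier results of these data known. The named genes of a list are the 2 with the smallest p among those called in each direction, and further genes of the lists were named after their values were seen. The alternatives were other pseudocounts, filters, scalings and variance priors, a block for adjacent library numbers, no fold threshold and leaving out each library. Plots were drawn with matplotlib 3.10.9.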

Additional observations from a re-analysis of the deposited data

How the results depend on the processing

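Over 15 alternative settings for each of the 10 factors, 135 of 150 log2 fold changes kept their direction and their side of the threshold, and those of Zbtb46, Irf4 and Id2 did so in all 15. The exceptions among called factors were the 3 settings of Klf4 given above. Bcl6 passed in 2 settings, Batf3 in 3 and Tcf4 in 1. The sign reversed for Irf8 after quantile normalization (0.10) and for Nfil3 after quantile normalization (0.037), scaled to Ptprc (0.10) and without CX3CR1- replicate 1 (0.09), CX3CR1+ replicate 2 (0.015) or CX3CR1+ replicate 3 (0.16), none of which was past the threshold. With each library left out, Nfil3 ranged from -0.48 to 0.16. The cause was not tested. Quantile normalization shifted the median over all genes to -0.15 on the log2 scale, and scaling to Ptprc shifted it to 0.20.

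With each library left out in turn, 3 to 6 factors (6 without CX3CR1- replicate 3), 6 to 9 relatives, 10 to 13 other regulators and 2742 to 3862 of all genes were called, the Irf4 to Irf8 difference lay between 1.79 and 1.98, and the Id2 to Tcf4 difference lay between -1.26 and -0.62. With a minimum mean of 50 there were 2413 genes called among 10208 tested, against 3628 among 17812. Without the fold threshold, 18 other regulators were called in place of 11. Of all calls, 2177 were higher and 1451 lower, against 1716 and 1674 after quantile normalization and 2294 and 920 when scaled to Ptprc. The labels give the populations no shared replicate numbers and do not state that libraries pair. A fit with adjacent library numbers as a block called 4 factors and 3610 genes and changed no call of a factor. At 3 libraries against 3, the exact permutation test cannot go below 0.1.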
